A study of Mus musculus with 6 samples.

Results

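A window over the largest olfactory receptor gene cluster of the mouse genome was examined on chromosome 2 in maps of methylated DNA from 3 stages of blood formation. Its members are the peaks that overlap mm9 positions 85000000 to 89800000 of chromosome 2, a stretch of 4.8 Mb. The bounds are positions and use no peak value, although the window was picked with earlier results of these data known. The window held 65 of the 164274 peaks of the series, with 29 of 85797 in hematopoietic stem cells (HSC), 27 of 50638 in common myeloid progenitors (CMP) and 9 of 27839 in erythroblasts (ERY), the immature red cells that still carry a nucleus. All 3 cell types came from C57BL/6 mice labelled female, with no treatment other than the MBD2 pulldown. HSC were lineage-negative adult bone marrow cells with Sca-1 and c-kit, and CMP were lineage-negative cells with c-kit and without Sca-1. Both names rest on these gates alone, and how the ERY cells were obtained is not stated in the labels used here. Each cell type had 1 MBD2-enriched library, so differences between them cannot be set against replicates and no p-value is given. The lists hold the start and end of each peak without height or read number, so the depth is unknown. A stretch without a peak is one where none was called, not one shown to lack methylation.

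Olfactory receptors are odorant-sensing G protein-coupled receptors of olfactory sensory neurons, each of which expresses a single receptor gene. The genes have short coding regions, lie in tandem arrays and arose by repeated duplication, so many pseudogenes stand among them. MBD2 binds DNA through methylated CG dinucleotides, so the recovery of a fragment depends on its number of CG as well as on their methylation. The 6 samples of the series hold no measure of expression.

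The genes of the cluster are known here by name and order only, since the gene table at hand is of a later assembly, GRCm38.p6, and its positions were not placed on mm9. In that table chromosome 2 had 377 olfactory receptor genes in 3 runs, and the longest run held 293 of them (77.7%). These were 222 protein-coding genes and 71 pseudogenes, from Olfr987 to Olfr1274. Another 39 genes lay inside the run. Of these, 32 were pseudogenes and 3 were protein-coding, namely Fads2b, of the fatty acid desaturase family, and Pramel7 and Pramel6, of the PRAME-like family. The protein-coding neighbours outside the run were Lrrc55, a leucine-rich repeat protein, and Ptprj, a receptor-type protein tyrosine phosphatase. On GRCm38.p6 the promoter of Olfr988, close to the first end of the run, began at 85353875. That of Olfr1274, the last gene, ended at 90400689. This stretch is longer than the window, so the window cannot hold the whole run unless the assemblies differ much in length here. Where either end of the run lies on mm9 was not determined. Where peaks are described, the cluster means the window.

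The promoters of the receptor genes were poor in CG, while the CG content of the window as a whole and of its peaks was not counted. RefSeq promoters on GRCm38.p6, from 250 bases before to 50 after each gene's start, were at hand for 186 of the 293 genes, and the dinucleotide CG, which reads the same on both strands, was counted in each. The median was 1 CG per promoter (quartiles 0 and 2, highest 7), against 16 (5 and 26, highest 67) in 16548 other protein-coding genes. A CG was present in 64.0% of the 186 promoters, in 96.6% of those of the other protein-coding genes and in 94.6% of all 27025 genes with a promoter in the table. At most 2 CG were found in 90.9% of the receptor promoters and in 14.4% of those of the other protein-coding genes. The other 758 olfactory receptor genes with a promoter in the table had the same median of 1, and 32.8% of them had no CG, against 36.0% in the run on chromosome 2. In 130 of the 186 receptor promoters (69.9%), ATG stood at the annotated start, so in these the window may lie around a start codon and not a transcription start. That share was 5.96% in the other protein-coding genes.

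The scarcity can be read in the receptor promoters below, shown beside those of the neighbouring genes. Each CG is in capitals and all other bases are in lower case. Their positions are on GRCm38.p6 and cannot be set against those of the peaks, which are on mm9. Olfr987, the first gene of the run, had no entry in the table. Olfr988 was the first gene with one (chr2:85353875-85354174, minus strand, 1 CG), and Olfr1274 the last gene of the run (chr2:90400390-90400689, plus strand, 2 CG). Olfr1212 had the most CG of the run (chr2:88958218-88958517, plus strand, 7 CG) and was chosen for that. In Olfr988 and Olfr1212 ATG stands at the annotated start, so their sequences may lie around a start codon and not a transcription start. The neighbours are Lrrc55 (chr2:85198701-85199000, minus strand, 4 CG) and Ptprj (chr2:90580546-90580845, minus strand, 42 CG, the richer of its 2 promoters).
Lrrc55: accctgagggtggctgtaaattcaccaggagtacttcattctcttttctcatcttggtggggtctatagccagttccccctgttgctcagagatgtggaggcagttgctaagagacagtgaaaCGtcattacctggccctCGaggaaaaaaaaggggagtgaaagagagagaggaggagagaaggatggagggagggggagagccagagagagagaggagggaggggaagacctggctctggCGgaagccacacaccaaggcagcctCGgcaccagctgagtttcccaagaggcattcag
Olfr988: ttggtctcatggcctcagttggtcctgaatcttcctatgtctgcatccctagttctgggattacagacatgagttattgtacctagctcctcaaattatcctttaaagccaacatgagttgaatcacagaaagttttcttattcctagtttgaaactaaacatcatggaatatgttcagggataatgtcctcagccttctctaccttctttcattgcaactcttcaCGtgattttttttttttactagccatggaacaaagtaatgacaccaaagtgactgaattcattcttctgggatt
Olfr1212: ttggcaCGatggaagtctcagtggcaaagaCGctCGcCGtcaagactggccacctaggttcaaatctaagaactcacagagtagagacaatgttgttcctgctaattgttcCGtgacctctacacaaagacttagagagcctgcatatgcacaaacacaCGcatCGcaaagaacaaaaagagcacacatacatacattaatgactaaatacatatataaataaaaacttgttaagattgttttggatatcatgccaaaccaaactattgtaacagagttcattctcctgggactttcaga
Olfr1274: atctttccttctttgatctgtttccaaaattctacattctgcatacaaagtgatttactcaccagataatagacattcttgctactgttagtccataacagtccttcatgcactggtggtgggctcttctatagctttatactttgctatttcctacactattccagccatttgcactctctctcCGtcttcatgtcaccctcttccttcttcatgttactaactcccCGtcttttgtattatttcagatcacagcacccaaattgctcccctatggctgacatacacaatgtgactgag
Ptprj: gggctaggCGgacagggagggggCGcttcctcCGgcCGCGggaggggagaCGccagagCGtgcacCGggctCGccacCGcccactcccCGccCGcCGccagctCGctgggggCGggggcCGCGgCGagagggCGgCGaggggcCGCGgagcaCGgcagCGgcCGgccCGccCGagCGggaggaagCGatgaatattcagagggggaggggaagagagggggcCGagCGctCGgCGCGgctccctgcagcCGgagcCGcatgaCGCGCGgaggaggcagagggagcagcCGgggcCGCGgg
The Ptprj promoter holds 42 of the capitals' pairs in its 300 bases, while the receptor promoters hold 1, 7 and 2. Lrrc55, at the other side of the run, had fewer than Olfr1212.

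**Figure D1:**
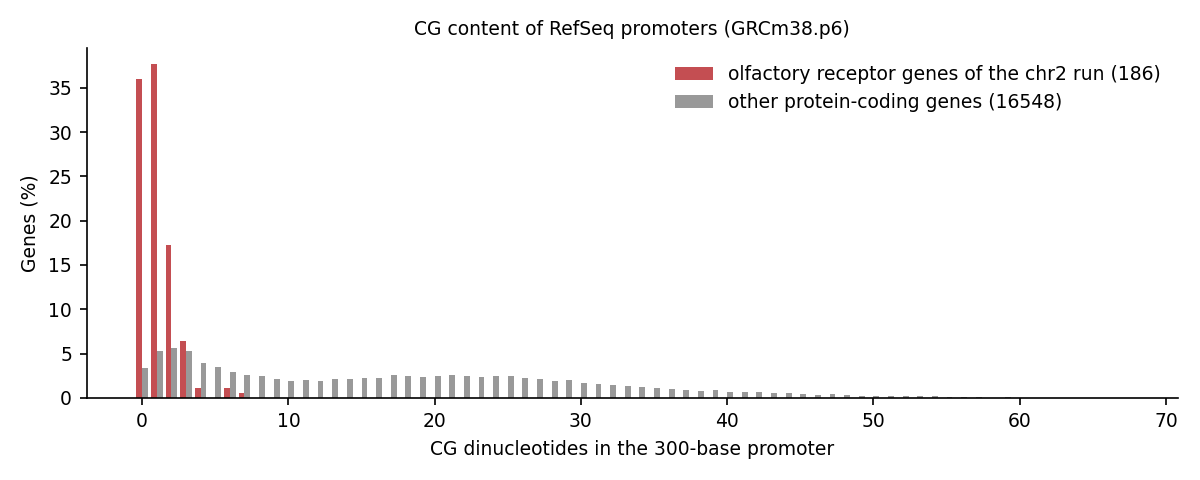
CG dinucleotides per 300-base RefSeq promoter (x axis) and percent of genes (y axis) for the 186 olfactory receptor genes of the chromosome 2 run (red) and 16548 other protein-coding genes (grey). The red bars lie between 0 and 7, and the grey bars reach 67.

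Methylated peaks were sparse across the window in all 3 cell types. The density was 6.04 peaks per Mb for HSC, 5.62 for CMP and 1.88 for ERY. The other 36 whole windows of the same size on chromosome 2, tiled outward from the cluster, had medians of 29.3, 17.2 and 9.69 peaks per Mb. The cluster was thus 4.84-fold (HSC), 3.06-fold (CMP) and 5.17-fold (ERY) below the median window. In HSC and in ERY its density was lower than in each of the 36 others, whose lowest values were 7.50 and 2.71 peaks per Mb. In CMP 1 window was lower and 1 equal, and 34 were higher. Although the window makes up 2.69% of the stretch of chromosome 2 that holds peaks, it held 0.491% of the HSC peaks of the chromosome, 0.779% of the CMP peaks and 0.475% of the ERY peaks.

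Peaks covered little of the window. HSC peaks covered 20091 bp, or 0.419% of its length, CMP peaks 16969 bp (0.354%) and ERY peaks 5656 bp (0.118%). Per Mb this was 4186 bp (HSC), 3535 bp (CMP) and 1178 bp (ERY), each below the lowest of the 36 other windows (5577, 4104 and 1746 bp). The other window with the fewest HSC peaks lay at 94600001 to 99400000, where 36 HSC, 27 CMP and 18 ERY peaks were found. It thus had as many CMP peaks as the cluster and more HSC and ERY peaks. The next were at 137800001 to 142600000 (49, 26 and 13 peaks) and 133000001 to 137800000 (61, 37 and 21). The 3 densest had 532, 408 and 313 HSC peaks and lay at 166600001 to 171400000, 161800001 to 166600000 and 152200001 to 157000000. Among 493 autosomal windows of this size, 2 had fewer HSC peaks than the cluster, namely 1 on chromosome 14 with 28 and 1 on chromosome 7, at 41474530 to 46274529, with no peak in any list. The windows beside the latter hold peaks, and whether the lists used here are complete over it is not known, so its rank may not be one of sparseness.

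**Figure D2:**
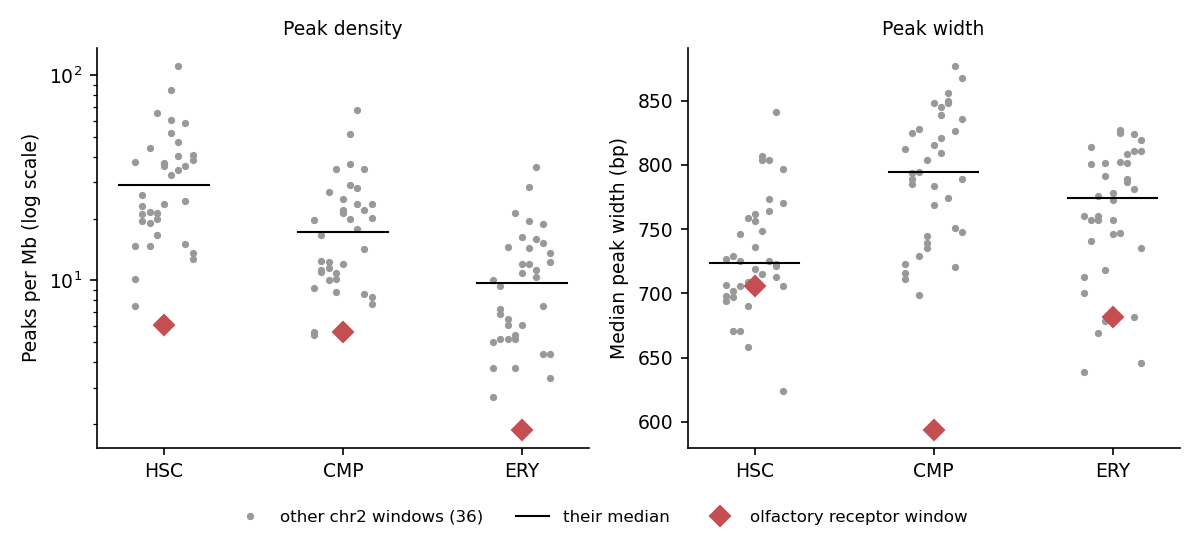
Peaks per Mb on a log scale (left) and median peak width in bp (right) for the olfactory receptor window (red diamond) and the 36 other 4.8 Mb windows of chromosome 2 (grey points, bar at their median) in each list. The cluster has the lowest density in HSC and ERY, 1 of the other windows is lower in CMP, and in CMP its median width of 594 bp lies below all other windows.

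The sparse stretch had a sharp edge on its proximal side. The 4.8 Mb before the window held 117 HSC peaks, 68 CMP peaks and 36 ERY peaks, and the 4.8 Mb after it 186, 97 and 65. In bins of 200 kb, the last 3 bins before the window held 12, 14 and 12 HSC peaks, and the first 3 bins inside it 1, 1 and 0. On the distal side, the last bin inside the window held 6 HSC peaks and the first 2 bins after it 1 and 1, before a rise to 8. With the window lengthened by 500 kb at each side, a choice made after seeing the data, the lists had 64 (HSC), 43 (CMP) and 21 (ERY) peaks. The densities then lay 2.65, 2.32 and 2.68-fold below the median window.

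**Figure D3:**
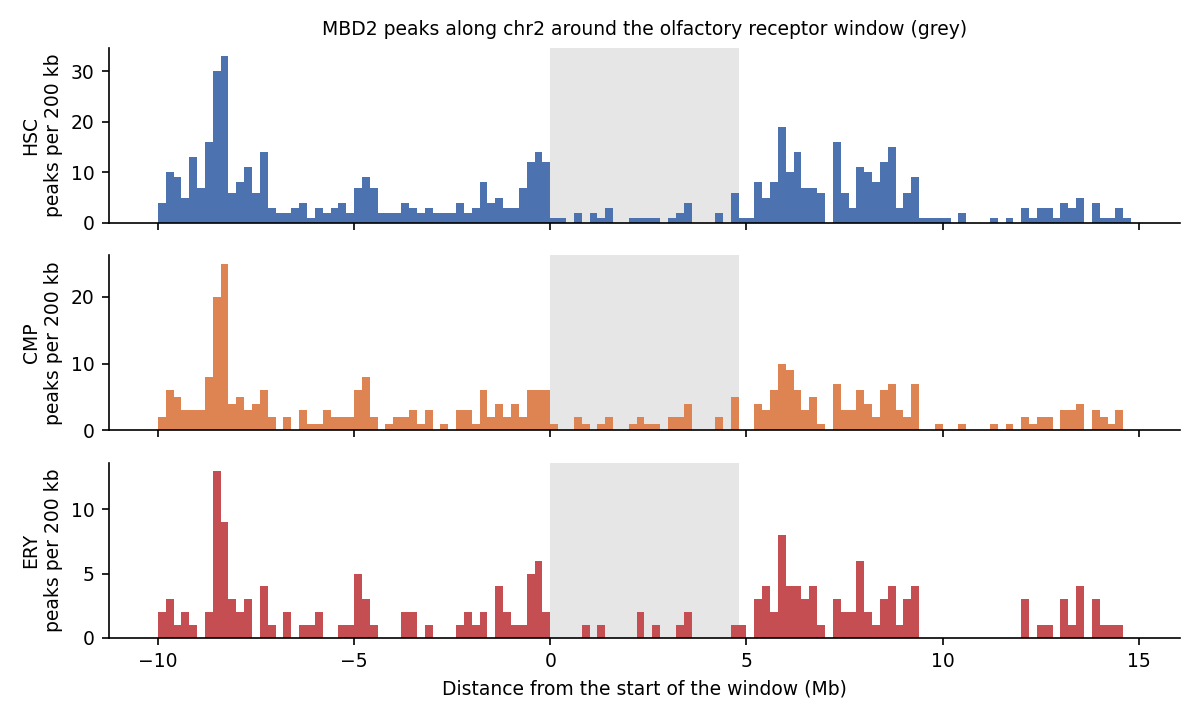
Peaks per 200 kb bin (y axis) in HSC, CMP and ERY against distance from the start of the window (x axis, Mb), from 10 Mb before to 10 Mb after the window, which is shaded grey. No bin inside the window holds more than 6 HSC peaks, while bins shortly before it hold 12 to 14.

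Inside the window neighbouring peaks were far apart, with a few small groups. In bins of 100 kb, 30 of 48 held no HSC peak, 29 no CMP peak and 40 no ERY peak. These counts depend on the low number of peaks and were not made for the rest of chromosome 2. The median gap between neighbouring HSC peaks was 79.5 kb in the window and 11.2 kb over the rest of chromosome 2. For CMP the gaps were 88.0 and 19.2 kb, and for ERY 387.0 and 36.0 kb. Gaps of at most 5 kb made up 2 of 28 in HSC (7.14%, against 31.4% over the rest of the chromosome), 1 of 26 in CMP (3.85%, against 21.5%) and 1 of 8 in ERY (12.5%, against 15.9%). In ERY this share was thus near that of the rest. The bin with the most peaks was the last 100 kb, with 4 in HSC and 4 in CMP, and it had 1 in ERY. Another group lay at 88313157 to 88552032 in HSC, where 6 peaks fell in 1 bin of 400 kb, together with 6 in CMP and 3 in ERY.

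The longest peak-free gaps were shared between HSC and CMP. In HSC the 3 longest ran from 88552033 to 89315704 (763.7 kb), from 86514872 to 87076346 (561.5 kb) and from 85312522 to 85776411 (463.9 kb). In CMP they ran from 88552125 to 89315662 (763.5 kb), from 85037036 to 85776429 (739.4 kb) and from 86514861 to 87121723 (606.9 kb). In ERY they ran from 88457844 to 89789692 (1332 kb), from 86340219 to 87277583 (937.4 kb) and from 87713430 to 88313205 (599.8 kb). The longest HSC gap was thus bounded by peaks of the same 2 merged regions in CMP as well, and in ERY it fell inside a longer one.

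CMP peaks in the window were narrow. Their median width was 594 bp (quartiles 532 and 753.5, n = 27), against 815 bp (676 and 946) over the rest of chromosome 2, and below the median of each of the 36 other windows (699 to 877 bp). It was also below that of each of 492 autosomal windows with CMP peaks, the lowest of which was 595 bp. With the window lengthened by 500 kb at each side the CMP median was 645 bp. That is still below the 36 other windows but no longer below all autosomal ones. HSC peaks had a median of 706 bp (571 and 835, n = 29), against 749.5 bp over the rest of the chromosome, and 9 of the 36 other windows were lower and 2 equal. ERY peaks had a median of 682 bp (543 and 703, n = 9), against 782 bp, and 4 of the 36 were lower and 1 equal. Peaks of 1000 bp or more numbered 2 in HSC and none in CMP or ERY, where they made up 19.4, 17.9 and 12.6% over the rest of chromosome 2. Across the 36 windows, median width rose with the number of HSC peaks, with a Spearman's rho of 0.80 for HSC, 0.72 for CMP and 0.55 for ERY. The windows share the 3 libraries, and the correlations are descriptions without a test.

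The number of peaks hardly differed between HSC and CMP in the window, while ERY had far fewer. CMP had 93.1% as many peaks as HSC, against 58.4% over the rest of chromosome 2 and 51.0 to 75.0% in the 36 other windows. ERY had 33.3% as many peaks as CMP, against 54.8% over the rest and 40.0 to 68.9% in the other windows. The ratio of ERY to HSC, 31.0%, was close to that of the rest, 32.0%. In the window the step from HSC to CMP thus took 29 peaks to 27, and that from CMP to ERY took 27 to 9. With the window lengthened by 500 kb at each side the ratio of CMP to HSC was 67.2% and that of ERY to CMP 48.8%. Both then lay inside the ranges of the 36 other windows. With it shortened by 200 kb at each side the ratios were 95.5% and 38.1%. With only the wider 50% of each list kept, the ratio of CMP to HSC was 63.6%. No interval was computed for these ratios, which rest on few peaks. Among the autosomal windows with HSC peaks, 492 in all, none reached the 93.1% of CMP to HSC found here. The highest, 88.6%, exceeded the 67.2% of the lengthened window.

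The share of HSC peaks kept in CMP was above, and that of CMP peaks kept in ERY below, each of the 36 other windows. A peak counts as kept when a peak of the other list shares at least 1 bp with it. Of the HSC peaks, 22 of 29 (75.9%, 95% exact binomial interval 56.5 to 89.7%) overlapped a CMP peak, against 57.1% of the whole list, 57.2% over the rest of chromosome 2 and 48.0 to 69.4% in the 36 other windows. Of the CMP peaks, 9 of 27 (33.3%, 16.5 to 54.0%) overlapped an ERY peak, against 50.7% of the whole list, 50.4% over the rest and 37.5 to 63.0% in the other windows. Of the HSC peaks, 7 of 29 (24.1%, 10.3 to 43.5%) overlapped an ERY peak, against 30.9% of the whole list and 30.6% over the rest, and 4 of 36 windows were lower. Counting error alone enters these intervals, which take each peak as independent of the others. Each of the 3 intervals includes the value of the rest of the chromosome, so with so few peaks these differences do not stand clear of counting error. With the window lengthened by 500 kb at each side, the share of HSC peaks kept in CMP was 59.4%, or 2.11 points above the rest and inside the range of the 36 others. That of CMP peaks kept in ERY was then 44.2%, or -6.12 points from the rest, and 38.1% with the window shortened by 200 kb at each side. Both values lie above the 37.5% of the lowest other window, so both places beyond all 36 depend on the bounds.

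Fewer of the later peaks lay on HSC peaks here. Of the CMP peaks, 22 of 27 (81.5%, 61.9 to 93.7%) overlapped an HSC peak, against 96.5% of the whole list, 97.1% over the rest of chromosome 2 and 92.3 to 100% in the 36 other windows. The interval lies below the value of the rest, but its upper end just includes the 93.6% pooled over the sparse autosomal windows described below. Of the ERY peaks, 7 of 9 (77.8%, 40.0 to 97.2%) overlapped an HSC peak, against 95.3% of the whole list and 95.5% over the rest, and the interval includes both. All 9 ERY peaks (66.4 to 100%) overlapped a CMP peak, against 92.5% of the whole list. The 5 CMP peaks without an HSC peak were all narrower than 818 bp, the median of the whole CMP list. The 7 CMP peaks of the window that belong to the wider 50% of the CMP list all overlapped an HSC peak.

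**Figure D4:**
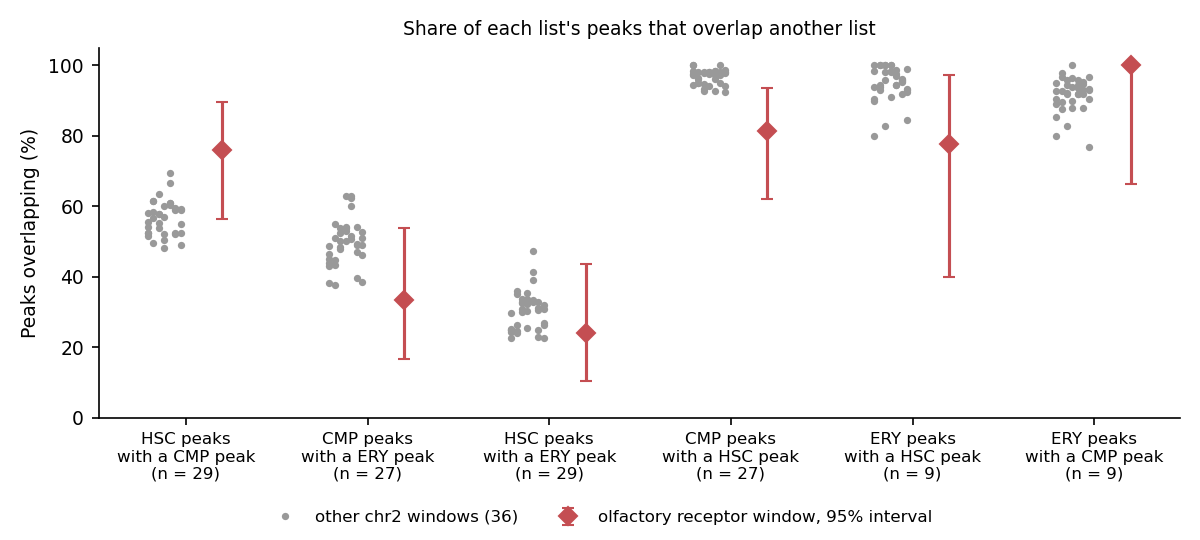
Percent of each list's peaks that overlap a peak of another list (y axis) in the olfactory receptor window (red diamond, 95% exact binomial interval) and in the 36 other windows of chromosome 2 (grey points). For CMP peaks with an HSC peak the cluster, at 81.5%, lies below all other windows, and for HSC peaks with a CMP peak, at 75.9%, above them.

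Sparse windows elsewhere resembled the cluster in some measures and not in others. On the autosomes 54 other windows had 0.5 to 2 times its number of HSC peaks, a range chosen after seeing the data. Of these, 53 held more HSC peaks than the cluster (median 47 against 29), so they were less sparse. Pooled, they had 64.0% as many CMP as HSC peaks, and 59.6% of their HSC peaks were kept in CMP. Of their CMP peaks 93.6% overlapped an HSC peak and 46.3% an ERY peak. The cluster exceeded all 54 in the ratio of CMP to HSC peaks (highest 88.6%) and 53 of 54 in the share of HSC peaks kept in CMP. It was below all 54 in the share of CMP peaks with an HSC peak (lowest 82.9%) and in the median width of CMP peaks (lowest 595 bp). In the percentage of CMP peaks with an ERY partner, 4 of 54 were lower and 1 equal. The median width of HSC peaks was not nearer here, since the 706 bp of the cluster exceeded 48 of the 54 (median 661.75 bp). In other measures the cluster lay well inside their range. For the ratio of ERY to HSC peaks, 26 of the 54 were lower and 28 higher. For the number of CMP peaks, 17 were lower, 5 equal and 32 higher. The median width of ERY peaks was lower in 34 and higher in 20.

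Merging peaks that overlapped or touched gave 34 regions in the window, none with more than 1 peak of a list. HSC and CMP shared 15 of them (44.1%, interval 27.2 to 62.1%), against 26.4% of all regions of the series and 26.8% over the rest of chromosome 2. Another 7 (20.6%, 8.70 to 37.9%) had one in HSC alone, against 40.7% and 40.8%, and 7 in all 3 cell types, against 28.5% and 28.4%. Peaks in CMP alone were found in 3 regions (8.82%, 1.86 to 23.7%), against 1.72% and 1.40%. In CMP and ERY without HSC there were 2 (5.88%, 0.720 to 19.7%), against 0.323% and 0.284%. No region had a peak in ERY alone or in HSC and ERY without CMP (0 to 10.3% each), against 1.16% and 1.2% of all regions. Regions without an HSC peak thus made up 5 of 34 (14.7%, 4.95 to 31.1%), against 2.81% over the rest of chromosome 2 and at most 7.69% in any of the 36 other windows. This share was higher in 3 of the 54 autosomal windows of like HSC peak number (highest 23.5%) and in 4 of all 492 with peaks. From HSC to CMP, 7 regions lost their peak (20.6%, 8.70 to 37.9%), against 42.0% (2514 regions) over the rest of the chromosome. Another 5 gained one (14.7%, 4.95 to 31.1%), against 1.69% (101 regions). The 5 regions without an HSC peak are among the 34 but could not lose one. Counted per HSC peak, the interval of the share kept in CMP (56.5 to 89.7%) includes the 57.2% of the rest. A CMP peak was present in 27 of the 34 regions (79.4%), against 56.9% over the rest, so a larger share of regions could lose one. Counted per CMP peak, the interval of the share kept in ERY includes the value of the rest, as given above. From CMP to ERY, 18 lost their peak (52.9% of the 34, against 28.2% over the rest) and none gained one. With 0 to 10.3% as its interval, the latter includes the 2.34% that gained one over the rest.

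**Figure D5:**
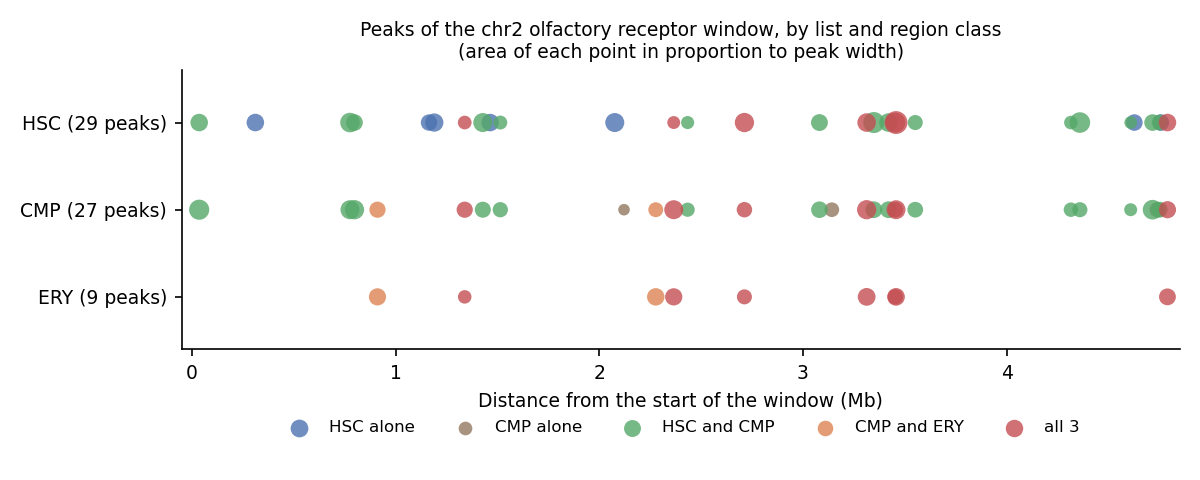
Position of each of the 65 peaks in the window (x axis, Mb from its start) in the 3 lists (rows), coloured by the lists that share the region, with point area in proportion to peak width. The ERY row holds 9 peaks, 2 of them in regions without an HSC peak, and an empty stretch is seen in all rows after 3.55 and before 4.32 Mb.

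The 7 regions common to the 3 lists were spread from 1.34 to 4.79 Mb into the window. The most proximal, at 86339629 to 86340234, had an HSC peak of 434 bp, a CMP peak of 606 bp and an ERY peak of 421 bp. At 87365839 to 87366667 the widths were 384, 829 and 686 bp, so the HSC peak was the narrowest of the 3. At 87712872 to 87713729 they were 858, 551 and 520 bp. CMP thus had the widest peak in the former pair of regions and HSC in the third. At 88312954 to 88313950 the widths were 794, 853 and 728 bp. A pair of regions followed at 88453476 to 88454418 (910, 559 and 543 bp) and 88457071 to 88458277 (1207, 828 and 720 bp), the latter with the widest HSC peak of the window. This pair, 2.65 kb apart in HSC, held the closest neighbouring peaks of each list in the window. The last region, at 89789644 to 89790413, lay close to the distal bound and had widths of 712, 679 and 653 bp. ERY peaks were narrower than CMP peaks in 7 of 7 of these regions (median ratio 0.870) and narrower than HSC peaks in 6 of 7 (median ratio 0.917). Over the rest of chromosome 2 the ratio of ERY to CMP was below 1 in 71.5% of 1701 such regions (median 0.893), and that of ERY to HSC in 65.6% (median 0.894).

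Both regions shared by CMP and ERY without HSC lay well away from any HSC peak. At 85911397 to 85912164 the CMP peak was 607 bp and the ERY peak 682 bp wide, and the nearest HSC peak was 112314 bp away. At 87277584 to 87278286 the widths were 512 and 703 bp, with the nearest HSC peak at 87727 bp. In both the ERY peak was the wider, unlike in the 7 regions shared by all lists. The 3 peaks in CMP alone lay at 87121724 to 87122032 (309 bp, the narrowest CMP peak of the window), 88142063 to 88142559 (497 bp) and 89739355 to 89739905 (551 bp). Their nearest HSC peaks were 44542, 60259 and 11527 bp away, so none of the 5 is a near miss of an overlap. Allowing 500 bp between peaks left all 5 without an HSC partner.

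The widest and the narrowest HSC peaks of the window were alike kept in CMP, where 22 of all 29 (75.9%) were kept. The 5 widest, of 1207, 1018, 975, 910 and 881 bp, all had a CMP peak, and the first and the fourth also an ERY peak. The peak of 1018 bp lay at 88348251 to 88349268, that of 975 bp at 89359694 to 89360668 and that of 881 bp at 85776412 to 85777292. The 2 narrowest, of 370 bp at 89609116 to 89609485 and of 384 bp at 87366014 to 87366397, were kept in CMP as well, and the second also in ERY. Kept HSC peaks had a median width of 682 bp (370 to 1207, n = 22) and those absent from CMP 706 bp (617 to 835, n = 7). Over the rest of chromosome 2 the medians were 807 bp for kept and 674 bp for absent peaks. From CMP to ERY the medians in the window were 607 bp for the 9 kept and 574.5 bp for the 18 absent peaks, against 876 and 757 bp elsewhere. When the rest of the chromosome was weighted to the widths of the window's peaks, the share of HSC peaks kept in CMP was 22.4 points higher in the window, against 18.7 unweighted. For CMP peaks kept in ERY the difference shrank from -17.0 to -3.73 points.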

How the data were processed

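Per the labels' protocols, MBD2-enriched DNA of 3 cell types was read by Illumina Genome Analyzer as single-end 36 bp reads, of which those with a unique place in the genome were used. Sequence repeated elsewhere in the genome is therefore represented poorly, and the share of the window open to unique reads was not computed. Per the submitters' processing notes the build is mm9. For each cell type the authors deposited a list of peaks with chromosome, start and end, written by a table browser query per the file headers. The calling of peaks and any use of the supernatant in it were not given in the sources used here. No library's depth is known, and the 3 supernatant samples are not analysed here.

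From the lists, overlaps of at least 1 bp, merged regions, widths and gaps were computed in Python 3.11.15 (numpy 2.4.6, scipy 1.17.1, pandas 2.3.3). Overlap counts were checked against bedtools 2.31.1 and equal, and the functions were tested on simulated data. Positions are printed 1-based. Windows of 4.8 Mb were tiled outward from the cluster between the first and last peak of chromosome 2. Other autosomes were tiled from their first peak. Shares carry 95% exact binomial (Clopper-Pearson) intervals. The receptor genes are the longest run on chromosome 2 with at most 5 other genes between neighbours, and for a gene with several promoters the one with the most CG was used.

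The window and the comparisons were chosen with earlier results of these data known. With over 20 regions, the text names each region with an ERY peak or without an HSC peak, the 5 widest and 2 narrowest HSC peaks, the 3 longest gaps of each list, the 3 sparsest and 3 densest other windows and the ends and neighbours of the gene run. Olfr988, Olfr1212 and the protein-coding neighbour Lrrc55 were added after seeing the table. Alternatives changed the window bounds and tiling, the overlap rule, merging within 500 bp and weighting by width, or kept the wider 50% of peaks.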

Additional observations from a re-analysis of the deposited data

How the results depend on the processing

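No paired analysis was possible because each cell type has 1 library. Of 167 recomputed values, 134 stayed within their interval or quartiles (shares, widths) or within 1.5 times (numbers, densities, ratios). With so few peaks the intervals are wide, so this count is a weak check. The HSC share kept in CMP counts as within at 2.11 points above the rest, against 18.7 in the main setting. That of CMP peaks kept in ERY does so at -3.73 points, against -17.0. Merging within 500 bp changed nothing, since neighbouring peaks of a list lay at least 2.65 kb apart in the window. The shifts beyond these limits came mainly from keeping the wider 50% of each list, which left 11 HSC, 7 CMP and 0 ERY peaks in the window. Shares of ERY peaks could then not be computed, and ERY had 0% as many peaks as CMP or HSC. CMP had 63.6% as many as HSC, against 93.1% in the main setting. By construction this setting also removes partners from the second list. Shares were then 27.3% (HSC in CMP, -15.5 points from the rest of chromosome 2, reversed), 0% (CMP in ERY, -39.2 points), 0% (HSC in ERY, -23.9 points) and 42.9% (CMP in HSC). Against the full CMP list, the wider HSC peaks were kept at 81.8%, 13.6 points above the rest. Covered bases became 2057.5 bp per Mb in HSC, 1255 in CMP and 0 in ERY, median widths 858 bp in HSC and 853 bp in CMP, and the CMP density 5.29-fold below the median window. The classes of HSC and CMP, CMP and ERY, and all 3 held 3, 0 and 0 regions.

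The wider 50% of CMP peaks against the full HSC list overlapped at 100%, 1.18 points above the rest, which reverses the difference and rests on 7 peaks. With the window lengthened by 500 kb at each side, peaks numbered 64, 43 and 21, the HSC and ERY densities were 2.65 and 2.68-fold below the median window, and ERY peaks in CMP fell to -2.05 points from the rest, a reversal. The HSC share kept in CMP was then 2.11 points above it. That ERY difference was otherwise 12.2 points (50% of both peaks covered), 8.06 (50% of the earlier peak), 10.1 (autosomal windows of like HSC peak number) and 10.6 (weighted by width), from 7.53. The lengthening takes in a denser proximal flank, where the last 2 bins of 200 kb held 14 and 12 HSC peaks. The first 2 bins on the distal side held 1 and 1. The cause of the shifts was not tested. The small numbers of peaks and the unknown depth limit every share.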

Other observations

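Among the 492 other autosomal windows with peaks, the highest ratio of CMP to HSC peaks was found on chromosome 5, at 55826718 to 60626717, and this window was singled out after its values were seen. It held 44 HSC peaks, 39 CMP peaks and 13 ERY peaks, so that CMP had 88.6% as many peaks as HSC. Of its HSC peaks 75.0% were kept in CMP, 84.6% of its CMP peaks overlapped an HSC peak, and its CMP peaks had a median width of 607 bp. Regions without an HSC peak numbered 9 of 53. The genes of that window were not examined.

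The other 2 runs of olfactory receptor genes on chromosome 2 had promoters as poor in CG as those of the large cluster. In the run from Olfr334-ps1 to Olfr368, 27 of 37 genes had a promoter in the table, with a median of 1 CG and none in 37.0%. In the run from Olfr1275 to Olfr1319-ps1, 30 of 47 genes had one, with a median of 1 CG and none in 33.3%. Peaks over these runs were not analysed here, since their mm9 positions were not at hand.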
